A study of Mus musculus with 12 samples.

Results

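The genes described here are 39 genes of DNA replication and mitosis, listed by symbol: the helicase that opens replication origins and its loaders, the enzymes of the replication fork, the cyclins and kinases that drive S phase and mitosis, and the proteins of the spindle and its checkpoint. They were taken by symbol and not by a cut on a measured value, though the list was made with earlier results of these data known. Every probe set whose platform symbol was on the list was taken, over all 12 arrays. Of the 39 symbols, 38 were measured by 68 probe sets, out of 12393 genes and 20380 probe sets with a single symbol, and Ccnb1 was not analysed here. Affymetrix arrays measured expression in 2 liver populations, hepatocytes, which carry out most of the organ's metabolism, and a fraction labelled mesenchymal cells, both from male C57BL/6N mice aged 12 weeks. Phenobarbital, a barbiturate that induces drug metabolism in the liver through the nuclear receptor CAR and is a mitogen of rodent hepatocytes, was given in the drinking water at 50 mg/kg per day for 14 days, and the controls drank tap water alone. Each population had 3 arrays from control mice, called vehicle mice here, and 3 from phenobarbital mice, which makes 4 groups. No group carries an altered gene. Neither the separation of the cells nor the number of animals behind an array is given in the sources used here, so a p-value reflects only how far these samples spread, which may be technical.

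A cell that copies its DNA first loads the MCM helicase onto origins, a step that needs Cdc6, and then switches the helicase on with Cdc45. Cyclin E and cyclin A drive S phase, and the E2F factors turn on most of the replication genes. Later, FoxM1 and related factors turn on the mitotic genes, whose products condense chromosomes, build the spindle and hold back anaphase until all chromosomes are attached. Most hepatocytes of an adult liver rest outside the cycle, and many hold more than a diploid set of chromosomes. The other cells of the liver include macrophages, endothelial cells, stellate cells and lymphocytes, and some of these divide at a low rate.

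The values are log2 expression values made by RMA, a method meant to bring arrays to a common distribution, so each difference is relative to most other probe sets. The array medians still lay at 7.19 to 7.21 in hepatocytes and at 7.40 to 7.44 in mesenchymal cells. The source of this offset between the populations was not tested. A level of one gene was not set against that of another, since probe sets differ in their response. The 40th percentile of an array lay between 6.54 and 6.68, and the members lay on both sides of it. In hepatocytes of vehicle mice 13 of the 38 were above it on all 3 arrays and 20 under it on all 3. In mesenchymal cells of vehicle mice these counts were 24 and 10. The mesenchymal fraction was high in the markers of macrophages, with an array mean of 13.26 to 13.74 against 5.96 to 6.51 in hepatocytes, and of sinusoidal endothelium, with 12.31 to 12.85 against 6.29 to 6.75. Markers of stellate cells and fibroblasts, the mesenchymal cells in the strict sense, had 7.36 to 7.97 against 5.73 to 5.92. Dendritic cell markers had 9.74 to 10.30 against 5.91 to 6.24. Where a gene differs between the populations, fewer cells of a type and less RNA per cell cannot be told apart.

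3 sets of arrays stood apart. The vehicle arrays numbered 1 had low Dbp, a clock output gene, at 6.21 in hepatocytes and 6.52 in mesenchymal cells, while the other 10 arrays had 11.6 to 12.2. The mean of 12 hepatocyte markers in mesenchymal cells was 9.15, 10.30 and 10.21 on the vehicle arrays 1 to 3 and 11.25, 9.87 and 9.63 on the phenobarbital arrays. Hepatocytes had 13.85 to 14.03. The mean of 8 neutrophil markers was 8.20 on mesenchymal phenobarbital array 2 and 5.77 to 6.76 on the other mesenchymal arrays. T and NK cell markers averaged 8.50 on mesenchymal vehicle array 1 and 7.70 to 8.05 on the other 5 mesenchymal arrays. Where the text ties a value to one of these arrays, the value without it is given beside it.

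Replication genes and mitotic genes are known to carry different control elements upstream, and 7 stretches, chosen because they hold such letters, are printed to show how the members differ in them. RefSeq windows from 250 bases before to 50 bases after the start of the gene (build GRCm38.p6) were matched to 31 of the 38 measured members. Mcm4, Ccne2, Ccna2, Foxm1, Aurkb, Kif20a and Tpx2 were not matched. E2F letters were searched as TTTCCCGC, TTTGGCGC, TTTCGCGC or TTTGCCGC, and the cell cycle homology region, an element of mitotic promoters, as TTTGAA, each on both strands. In the printed lines, which run 5′ to 3′ on the strand of the gene, capitals mark both. A match on the opposite strand appears as its reverse complement, such as TTCAAA for TTTGAA. In Mcm5 and Mcm6 E2F letters on opposite strands overlap and form 1 run of capitals. The stretches are chr8:75109349-75109508 on the plus strand for Mcm5, chr1:128359706-128359865 on the minus strand for Mcm6, chr10:69352913-69353072 on the minus strand for Cdk1, chr7:135716380-135716539 on the minus strand for Mki67, chr2:164769769-164769928 on the plus strand for Ube2c, chr4:118437344-118437503 on the minus strand for Cdc20 and chr11:99024190-99024349 on the minus strand for Top2a.
Mcm5: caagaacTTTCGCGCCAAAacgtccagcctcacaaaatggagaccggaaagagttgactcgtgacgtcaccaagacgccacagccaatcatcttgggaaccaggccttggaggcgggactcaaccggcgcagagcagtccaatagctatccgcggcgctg
Mcm6: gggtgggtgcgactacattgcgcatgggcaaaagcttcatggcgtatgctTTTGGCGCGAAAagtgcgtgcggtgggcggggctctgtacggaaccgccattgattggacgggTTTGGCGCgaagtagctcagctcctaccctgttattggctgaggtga
Cdk1: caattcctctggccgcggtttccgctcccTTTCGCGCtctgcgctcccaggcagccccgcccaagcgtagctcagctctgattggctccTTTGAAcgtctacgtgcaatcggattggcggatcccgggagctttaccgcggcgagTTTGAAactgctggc
Mki67: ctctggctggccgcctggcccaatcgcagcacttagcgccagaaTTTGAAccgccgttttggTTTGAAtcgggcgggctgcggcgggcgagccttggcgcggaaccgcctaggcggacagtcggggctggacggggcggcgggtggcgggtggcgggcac
Ube2c: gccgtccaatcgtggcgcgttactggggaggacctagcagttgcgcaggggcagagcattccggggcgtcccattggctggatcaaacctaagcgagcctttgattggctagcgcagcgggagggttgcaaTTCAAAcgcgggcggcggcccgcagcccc
Cdc20: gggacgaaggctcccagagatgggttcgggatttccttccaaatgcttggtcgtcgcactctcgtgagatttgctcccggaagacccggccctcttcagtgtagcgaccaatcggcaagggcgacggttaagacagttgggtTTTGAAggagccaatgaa
Top2a: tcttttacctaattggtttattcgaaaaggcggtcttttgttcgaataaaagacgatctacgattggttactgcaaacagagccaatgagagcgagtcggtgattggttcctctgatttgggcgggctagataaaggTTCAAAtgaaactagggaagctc

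The helicase genes Mcm5 and Mcm6 hold E2F letters and no TTTGAA in the printed stretch. Mki67, Ube2c, Cdc20 and Top2a hold TTTGAA on one of the strands and no E2F letters, and Cdk1, the kinase of mitotic entry, holds both. Over the windows of 300 bases, E2F letters were found in 6 of 31 members (19.4%), namely Cdc6, Cdk1, Mcm3, Mcm5, Mcm6 and Mcm7, and in 2.61% of the windows of 27025 genes. By role, these were 5 of 7 licensing genes and 1 of 4 mitotic entry genes, and none of the 4 fork genes, 2 S phase genes, 6 checkpoint genes or 8 spindle genes. TTTGAA was found in 15 of 31 members (48.4%) and in 20.2% of all windows. It was present in 4 of 4 mitotic entry genes, 4 of 6 checkpoint genes and 5 of 8 spindle genes, in 2 of 7 licensing genes, and in none of the fork and S phase genes. The variant TTCGAA was found in 4 members (12.9%; 1.80% of all windows), the CCAAT box, searched as CCAAT, in 24 (77.4%; 41.1%) and the GC box, searched as GGGCGG, in 25 (80.6%; 38.2%). These matches describe the letters of the windows and are no evidence of binding.

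**Figure D1:**
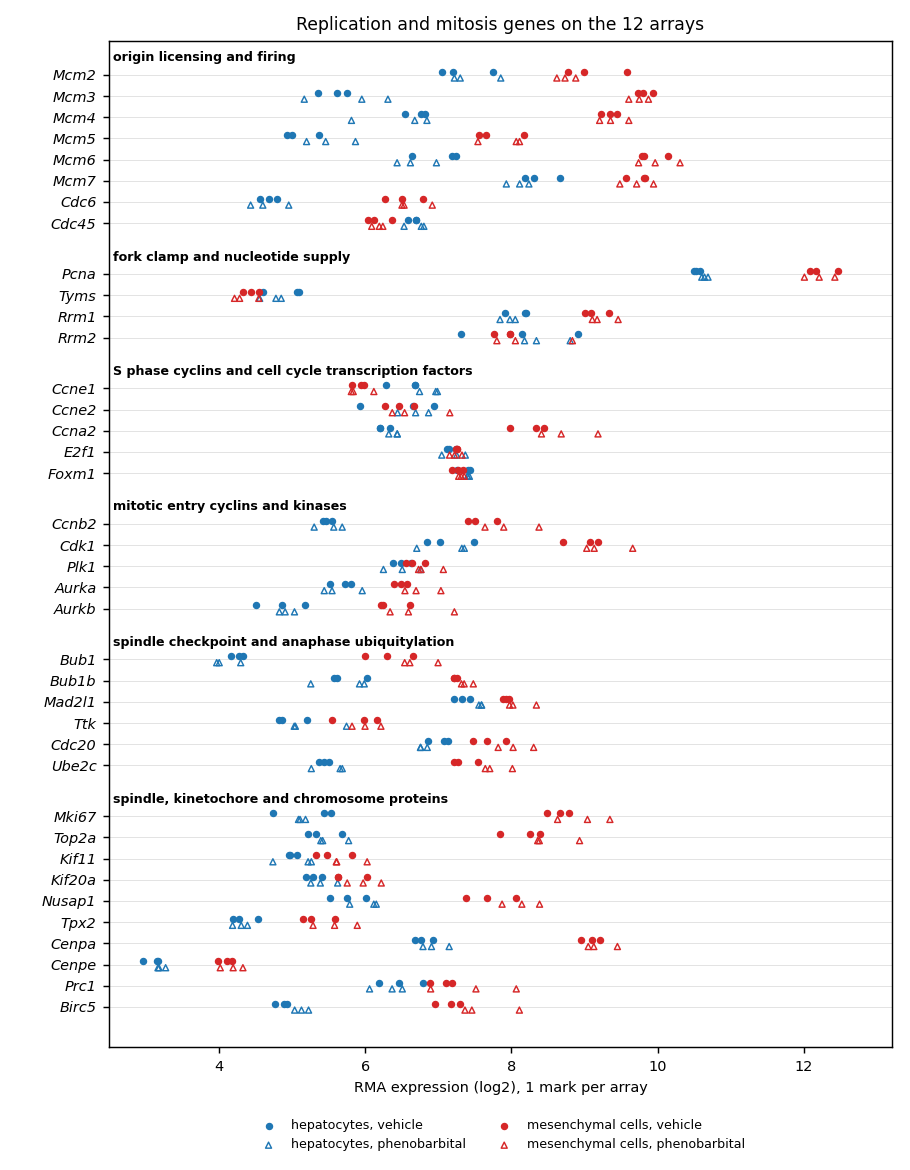
Log2 RMA values (x axis) of the 38 measured genes (y axis, grouped by role) with 1 mark for each of the 12 arrays. Circles are vehicle, triangles are phenobarbital, blue is hepatocytes and red is mesenchymal cells. In 30 genes all 3 mesenchymal vehicle arrays lie above all 3 hepatocyte vehicle arrays, and in 3 genes (Cdc45, Tyms and Ccne1) they lie below.

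Most of the 38 replication and mitosis genes had higher values in the mesenchymal fraction than in hepatocytes, relative to most other probe sets. In vehicle mice 29 of the 38 members were higher and 3 were lower in mesenchymal cells in limma at an adjusted p under 0.05, and 6 were not called. Of all 12393 genes, 32.8% were called higher and 45.5% lower in this comparison. In 30 members the groups did not overlap with mesenchymal cells higher, and in 3 with mesenchymal cells lower, against 33.8% and 47.6% of all genes. At least 2-fold higher were 21 members (55.3%), and 17.8% of all genes. The median difference of the members was 1.42 on the log2 scale, and that of all genes was -0.19. This median depends on the probe set that stood for each gene, the one of highest mean over all arrays. That rule took the higher difference in Top2a, Bub1 and Nusap1, and the lower one in Mcm2, Mcm6 and Rrm1. With the mean of a gene's probe sets the median of the members was 0.97. Without the vehicle arrays numbered 1 in both populations, 27 members were higher and 2 lower, with a median of 1.43.

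**Figure D2:**
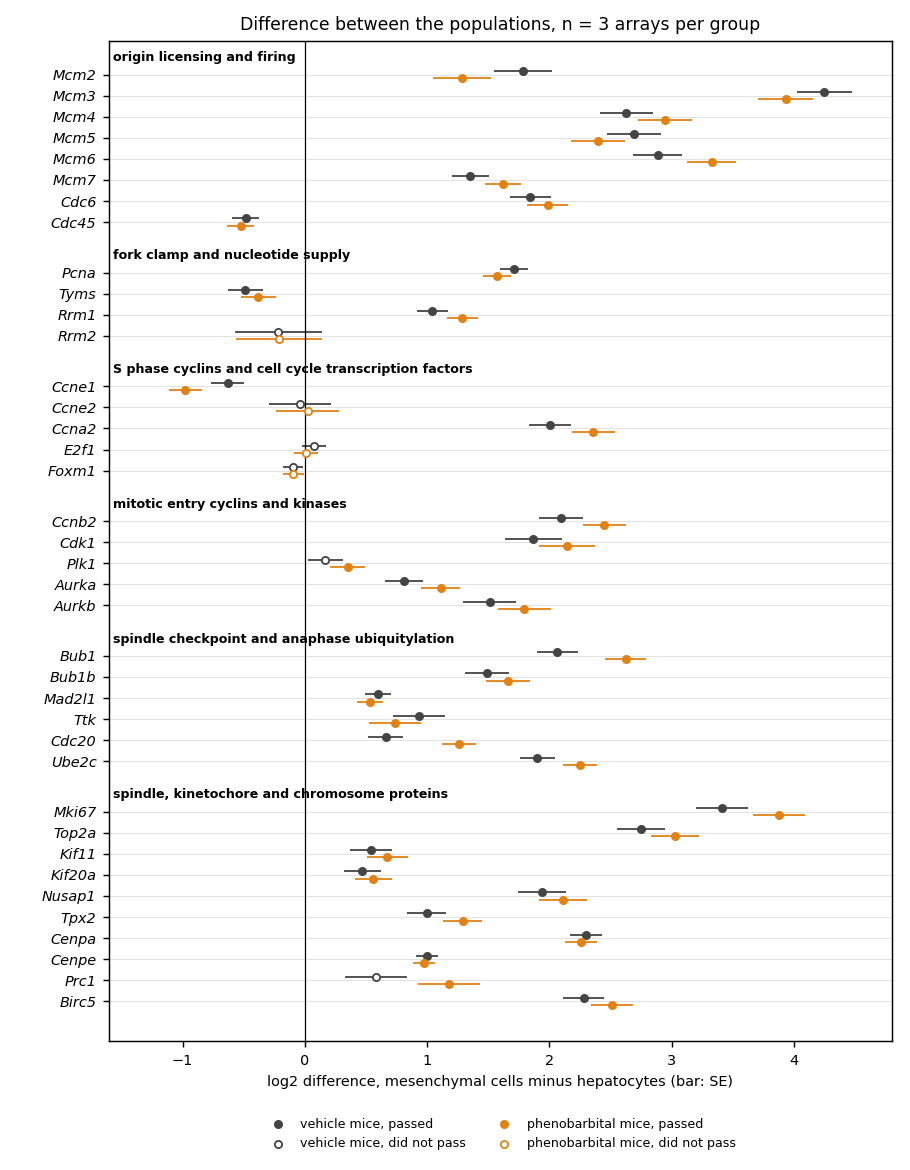
Log2 difference between mesenchymal cells and hepatocytes (x axis) for each gene (y axis, grouped by role) in vehicle and in phenobarbital mice, where filled points passed the test, open points did not, and bars are the SE of the limma fit. On the probe sets that stood for them, the licensing genes Mcm2 to Mcm7 and Cdc6 lie between 1.35 and 4.25 in vehicle mice. On the same basis Rrm2, Ccne2, E2f1, Foxm1 and Plk1 lie within 0.22 of 0.

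The origin licensing genes had the widest median difference of the 6 roles, 2.24, with 7 of 8 higher and 1 lower. Mcm3, a subunit of the MCM helicase ring, had values of 5.61, 5.75 and 5.36 in hepatocytes and 9.94, 9.73 and 9.80 in mesenchymal cells of vehicle mice. All mesenchymal arrays were high and all hepatocyte arrays low, with no overlap. The difference was 4.25 (SE 0.23, adjusted p = 6.00e-09) on the probe set that stood for the gene. The hepatocyte values were under the 40th percentile on all 3 arrays, where the table gives no measure of background, and the further probe sets of Mcm3 gave 0.22 to 3.26. Mcm6, another subunit of the ring whose upstream E2F letters are printed above, had 7.25, 6.63 and 7.19 against 10.13, 9.78 and 9.82. The groups lay far apart, with a difference of 2.89 (SE 0.20, adjusted p = 5.92e-08). Mcm2, the subunit that also binds histones, had 7.74, 7.05 and 7.20 against 9.58, 8.99 and 8.78. Here array 1 was the highest of its group in both populations, and the groups did not overlap. The difference was 1.79 (SE 0.23, adjusted p = 2.21e-05), and 1.76 without the arrays numbered 1. The remaining ring subunits Mcm4, Mcm5 and Mcm7 and the loader Cdc6 were higher by 1.35 to 2.69. Cdc45, which joins the loaded ring to form the active helicase, went the other way. Its values were 6.58, 6.69 and 6.70 in hepatocytes and 6.37, 6.04 and 6.12 in mesenchymal cells, where no array was above the 40th percentile. The groups did not overlap, and the difference was -0.48 (SE 0.11, adjusted p = 0.00176).

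Of the fork and nucleotide genes, 2 of 4 were higher and 1 was lower, with a median of 0.41. Pcna, the sliding clamp of the DNA polymerases, had 10.50, 10.53 and 10.58 in hepatocytes and 12.47, 12.09 and 12.17 in mesenchymal cells. The hepatocyte arrays were nearly equal, and all mesenchymal arrays lay above them. The difference was 1.71 (SE 0.11, adjusted p = 4.13e-08). Rrm1, the large subunit of ribonucleotide reductase, had 8.20, 8.18 and 7.91 against 9.33, 9.0 and 9.09, a difference of 1.04 (SE 0.13, adjusted p = 1.03e-05). Rrm2, the small subunit of the same enzyme, had 7.31, 8.14 and 8.91 in hepatocytes and 7.98, 7.76 and 7.98 in mesenchymal cells. The hepatocyte arrays spread widely and enclosed the mesenchymal ones, and the difference of -0.22 (SE 0.35, adjusted p = 0.583) was smaller than its error. Tyms, which makes thymidylate, was lower by 0.49 on the log2 scale in mesenchymal cells (difference -0.49, SE 0.14, adjusted p = 0.00796), from values under the 40th percentile on all 12 arrays. Without the vehicle arrays numbered 1 in both populations its difference was -0.41 and the call was lost (adjusted p = 0.0638).

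The S phase cyclins split. Ccna2, cyclin A2, which acts in S phase and at mitotic entry, had 6.20, 6.20 and 6.34 in hepatocytes and 8.44, 7.98 and 8.34 in mesenchymal cells. No array overlapped, and the difference was 2.01 (SE 0.17, adjusted p = 5.11e-07). Ccne1, cyclin E1, which starts S phase, had 6.28, 6.68 and 6.69 in hepatocytes and 5.99, 5.82 and 5.95 in mesenchymal cells. All mesenchymal arrays were lower, with a difference of -0.63 (SE 0.13, adjusted p = 0.00098). Ccne2, cyclin E2, had 5.93, 6.65 and 6.95 against 6.67, 6.46 and 6.27, so the groups overlapped fully. Its difference was -0.04 (SE 0.26, adjusted p = 0.892). E2f1, a transcription factor of the replication genes, had 7.12, 7.25 and 7.15 against 7.26, 7.24 and 7.25 on the probe set that stood for it. That difference of 0.08 (SE 0.10, adjusted p = 0.474) was not called. The further probe set of E2f1 had 6.70, 6.52 and 6.67 against 7.37, 7.11 and 7.10, without overlap, a difference of 0.57. Foxm1, a transcription factor of the mitotic genes, was not called, with -0.10 (SE 0.08, adjusted p = 0.295) on the probe set that stood for it. When arrays were centred on their medians or their 75th percentiles, which shifted all differences between the populations in vehicle mice by -0.22 or -0.13, Foxm1 was called lower in mesenchymal cells.

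Among the mitotic entry genes 4 of 5 were higher, with a median of 1.51. Ccnb2, cyclin B2, a partner of the mitotic kinase, had 5.42, 5.47 and 5.54 in hepatocytes and 7.80, 7.40 and 7.50 in mesenchymal cells. Every mesenchymal array was high, and the difference was 2.09 (SE 0.18, adjusted p = 3.84e-07). Cdk1, that kinase itself, whose upstream stretch holds both kinds of letters, had 7.02, 6.85 and 7.49 against 9.18, 8.71 and 9.08. The difference was 1.87 (SE 0.23, adjusted p = 1.20e-05). Aurka and Aurkb, the kinases of the centrosome and of the chromosomal passenger complex, were higher by 0.81 and 1.51. Plk1, a kinase of mitotic entry and exit, had 6.38, 6.63 and 6.50 against 6.81, 6.55 and 6.64. Its groups overlapped, and the difference of 0.17 (SE 0.14, adjusted p = 0.299) was not called.

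All 6 checkpoint and anaphase genes were higher, with a median of 1.21. Bub1, a checkpoint kinase of the kinetochore, had 4.33, 4.16 and 4.27 in hepatocytes, under the 40th percentile, and 6.66, 6.00 and 6.29 in mesenchymal cells. The difference was 2.06 (SE 0.17, adjusted p = 2.76e-07). Ube2c, the ubiquitin-conjugating enzyme of the anaphase-promoting complex, had 5.44, 5.50 and 5.37 against 7.54, 7.26 and 7.21. The hepatocyte arrays were tightly grouped and low, and the difference was 1.90 (SE 0.14, adjusted p = 1.20e-07). Mad2l1, which holds the anaphase activator back, had 7.32, 7.44 and 7.21 against 7.96, 7.88 and 7.92. This was the narrowest difference of the role, 0.60 (SE 0.11, adjusted p = 0.000252), with no overlap. Bub1b, Ttk and Cdc20, which are the checkpoint protein BubR1, the kinase Mps1 and the anaphase activator, were higher by 1.49, 0.94 and 0.66 on the probe sets that stood for them.

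Of the 10 spindle, kinetochore and chromosome genes 9 were higher, with a median of 1.47. Mki67, which codes for the proliferation marker Ki-67, had 5.53, 4.74 and 5.44 in hepatocytes and 8.79, 8.49 and 8.67 in mesenchymal cells. All hepatocyte arrays were under the 40th percentile and all mesenchymal arrays well above it. The difference was 3.41 (SE 0.21, adjusted p = 2.17e-08), again from hepatocyte values with no measure of background. Top2a, the topoisomerase that untangles sister chromatids, had 5.69, 5.33 and 5.22 against 8.39, 7.85 and 8.25 on the probe set that stood for it, a difference of 2.75 (SE 0.20, adjusted p = 7.83e-08). Cenpa, the histone variant of the centromere, was higher by 2.30 and Birc5, survivin of the passenger complex, by 2.28. Nusap1, Tpx2 and Cenpe, which act on spindle fibres and kinetochores, were higher by 1.94, 0.99 and 1.0. Kif20a, a motor of cytokinesis, had 5.28, 5.19 and 5.41 against 6.03, 5.63 and 5.63. Its difference was 0.47 (SE 0.15, adjusted p = 0.0132), and that of Kif11, the motor that separates the spindle poles, was 0.54 (SE 0.17, adjusted p = 0.0117). Both calls were lost under either centring, and without mesenchymal vehicle array 1 (adjusted p = 0.0628 for Kif20a and 0.0548 for Kif11). Prc1, which bundles microtubules between the separating chromosomes, had a difference of 0.58 (SE 0.25, adjusted p = 0.0525) and was called when only the 6 vehicle arrays were fitted (adjusted p = 0.0147).

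The calls over all genes differed with the level of the gene. Of the 3362 genes that were not above the 40th percentile on at least 3 arrays, 58.8% were called lower in mesenchymal cells of vehicle mice and 8.60% higher. Among the other 9031 genes the shares were 40.6% and 41.9%. With the low genes left out before the fit, 28 members were tested, and 20 were higher and 2 lower in vehicle mice. This filter kept members through the population in which they are high, so these counts describe the filter and the members together.

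The same comparison in phenobarbital mice, on arrays that the vehicle comparison did not use but with 1 estimate of the spread over all 12, gave 31 members higher and 3 lower, with 4 not called. Of all genes, 32.9% were called higher and 47.6% lower. The groups did not overlap in 30 members with mesenchymal cells higher and in 4 with mesenchymal cells lower, against 34.1% and 48.8% of all genes. At least 2-fold higher were 25 members (65.8%), and 18.0% of all genes, and the median of the members was 1.43 against -0.22 for all genes. The mean of a gene's probe sets gave a median of 1.14 for the members. The licensing genes were again 7 higher and 1 lower, the checkpoint genes 6 of 6 higher, and the spindle genes 10 of 10 higher. Of these spindle genes, Kif20a lost its call when arrays were centred on their medians (adjusted p = 0.0584). The lower members were Cdc45 at -0.53, Ccne1 at -0.98 and Tyms at -0.38. Mcm3 differed by 3.93 (adjusted p = 1.23e-08) and Mki67 by 3.88 (adjusted p = 7.13e-09). Plk1 at 0.35 (adjusted p = 0.0404) and Prc1 at 1.18 (adjusted p = 0.00104) were called here and not in vehicle mice, and the difference between the treatments, tested below as an interaction, was not called for either. Leaving out hepatocyte array 1 or 2 or mesenchymal array 1 ended the call of Plk1 (adjusted p of 0.174, 0.0751 and 0.164). For Tyms, leaving out hepatocyte array 1 or 3 or mesenchymal array 1 or 2 did so (adjusted p of 0.0688, 0.0896, 0.0926 and 0.0737).

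**Figure D3:**
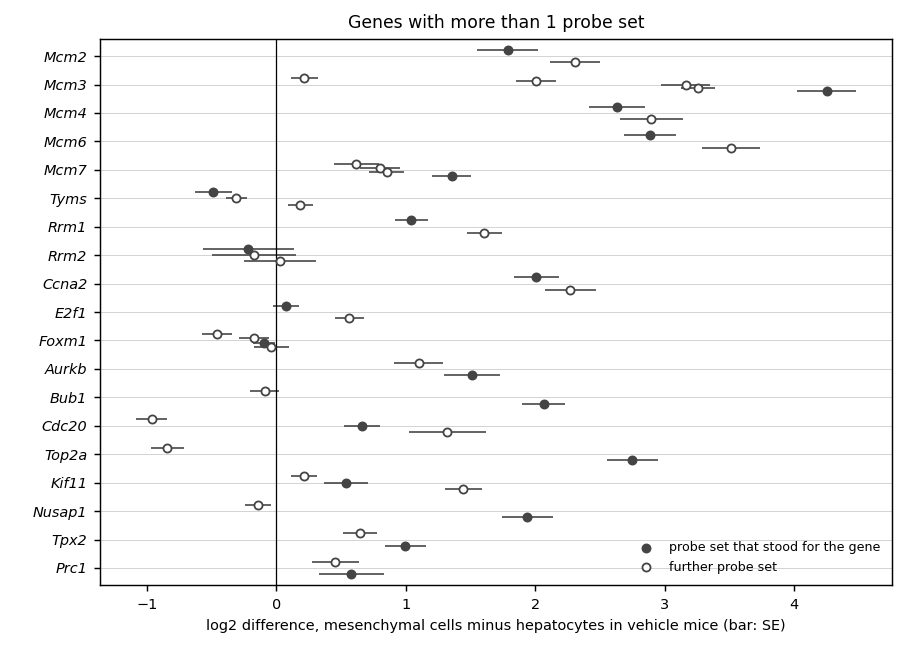
Log2 difference between mesenchymal cells and hepatocytes of vehicle mice (x axis) for every probe set of the 19 members with more than 1 (y axis), where bars are the SE. Filled points stood for the gene in the tests and open points are its further probe sets, and Top2a, Cdc20, Bub1, Nusap1, Tyms and Rrm2 have probe sets on both sides of 0.

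For 19 members more than 1 probe set was present, and in vehicle mice these differed in sign in 6 and by over 1 on the log2 scale in 6. Over all 68 probe sets, each tested on its own, 46 were higher and 7 lower in vehicle mice, and 50 and 6 in phenobarbital mice. For Top2a and Cdc20 probe sets were called in opposite directions. The further probe set of Top2a had 5.82, 5.96 and 5.45 in hepatocytes and 4.81, 4.87 and 5.03 in mesenchymal cells of vehicle mice, and a difference of -0.84 where the probe set of higher mean gave 2.75. In phenobarbital mice the pair gave -1.15 and 3.03. The 3 probe sets of Cdc20 had -0.96, 0.66 and 1.32, and 0.66 was that of the probe set that stood for it. On the one with -0.96 the values were 7.91, 7.62 and 7.82 in hepatocytes and 6.96, 6.71 and 6.79 in mesenchymal cells, without overlap. Bub1 had -0.09 and 2.06, and Nusap1 -0.14 and 1.94. The 5 probe sets of Mcm3 had one sign and ran from 0.22 to 4.25, and the 3 of Kif11 from 0.21 to 1.45. Tyms had -0.49, -0.31 and 0.19, and Rrm2 -0.22, -0.17 and 0.03. Mcm2 had 1.29 and 2.38 in phenobarbital mice. Under phenobarbital the probe sets differed in sign in 11 of these 19 members in hepatocytes and in 8 in mesenchymal cells, by no more than 1. The identities of the transcripts behind the diverging probe sets were not tested.

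In hepatocytes no member passed the test between phenobarbital and vehicle, after 14 days of a compound known as a liver mitogen. Limma called 0 of 38 members at an adjusted p under 0.05 and 3 members had an unadjusted p under 0.05, while of all 12393 genes 0.0242% were called higher, 0.0161% lower and 989 genes had an unadjusted p under 0.05. The groups did not overlap in 4 members with phenobarbital higher and in 1 with phenobarbital lower, against 7.49% and 6.8% of all genes. Positive differences numbered 25 and negative ones 13, with a median of 0.06, while 51.9% of all genes were positive with a median of 0.01. With each array left out in turn the median of the members was 0.04 to 0.06.

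Mki67 in hepatocytes had 5.53, 4.74 and 5.44 in vehicle mice and 5.09, 5.18 and 5.11 in phenobarbital mice. The phenobarbital arrays lay inside the spread of the vehicle arrays, and the difference was -0.11 (SE 0.20) with a 95% interval of the limma fit from -0.57 to 0.36. Without vehicle array 1 the difference was 0.04. Cdk1 had 7.02, 6.85 and 7.49 against 6.71, 7.36 and 7.32, a difference of 0.01 with an interval from -0.50 to 0.51. Top2a had 5.69, 5.33 and 5.22 against 5.39, 5.77 and 5.42, a difference of 0.12 with an interval from -0.26 to 0.50. For 37 of the 38 members the 95% interval lay within a 2-fold change in either direction, and for Rrm2, whose vehicle arrays spread from 7.31 to 8.91, it reached 1.14. Without vehicle array 1, the lowest of them, the difference of Rrm2 went from 0.32 to -0.09. In hepatocytes 20 of the 38 members were under the 40th percentile on all 3 vehicle arrays, and 21 on all 3 phenobarbital arrays. Mki67 and Top2a were among both. With no measure of background, the intervals bound the measured values only, and how far a change of RNA would show in such dim genes was not tested.

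The members with the smallest p in hepatocytes were the following. Mad2l1 had 7.32, 7.44 and 7.21 in vehicle and 7.59, 7.59 and 7.55 in phenobarbital mice, without overlap, and a difference of 0.26 (SE 0.10, adjusted p = 0.606). Birc5 had 4.89, 4.77 and 4.93 against 5.04, 5.13 and 5.23, also without overlap, and a difference of 0.26 (SE 0.11, adjusted p = 0.619). Ccne1 had 6.28, 6.68 and 6.69 against 6.97, 6.99 and 6.74, a difference of 0.35 (SE 0.15, adjusted p = 0.619). In Ccne1 the vehicle array numbered 1 was the lowest, and without it the difference was 0.21. On the negative side Cdc20 had 7.14, 6.86 and 7.08 against 6.76, 6.85 and 6.76, a difference of -0.24 (SE 0.12, adjusted p = 0.664). Mcm7 at -0.29 (SE 0.14) and Mcm6 at -0.35 (SE 0.20) followed, and the groups of both overlapped. Pcna, at 10.50, 10.53 and 10.58 against 10.69, 10.64 and 10.60, was the fourth member without overlap on the higher side, with a difference of 0.11 (SE 0.07). The licensing genes were split evenly, 4 positive and 4 negative, from -0.35 for Mcm6 to 0.41 for Mcm5. The 5 S phase genes were all positive, from 0.04 to 0.35, on the probe set that stood for each gene. Further probe sets of E2f1 and Foxm1 went down to -0.07 and -0.21.

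**Figure D4:**
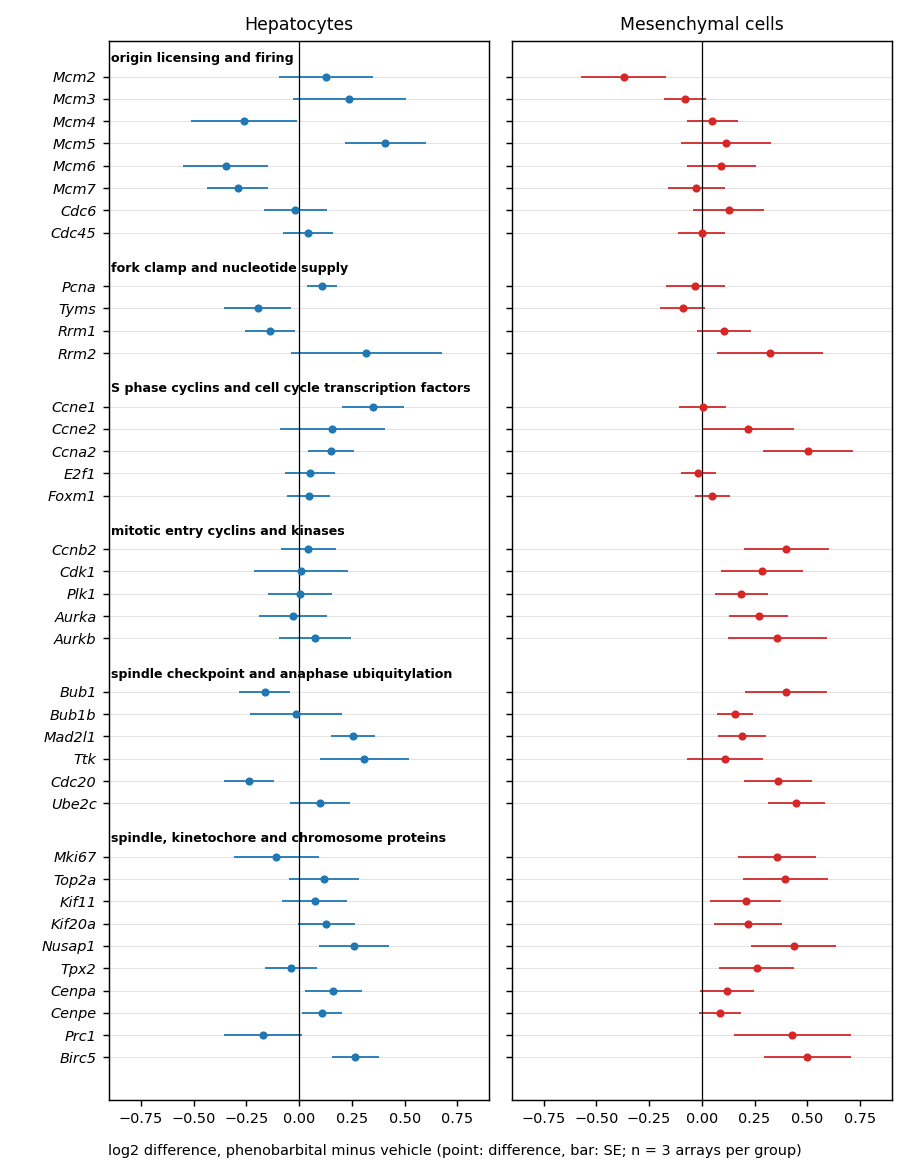
Log2 difference between phenobarbital and vehicle (x axis) for each gene (y axis, grouped by role) in hepatocytes on the left and mesenchymal cells on the right, with 3 arrays a group, where bars are the SE. In mesenchymal cells all 21 genes of the mitotic roles lie above 0, none of them called, and in hepatocytes the points of these genes lie on both sides.

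In mesenchymal cells no member passed the test either, but the differences leaned one way in the mitotic genes. Limma called 0 of 38 members (each at an adjusted p of 0.999), with 2 at an unadjusted p under 0.05, and it called 0% of all genes higher and 0% lower, with 416 genes at an unadjusted p under 0.05. The groups did not overlap in 4 members with phenobarbital higher and in 0 with phenobarbital lower, against 3.8% and 4.57% of all genes. Positive differences numbered 31 and negative ones 7, with a median of 0.19, while 48.4% of all genes were positive with a median of -0.00. By role, the mitotic entry genes were 5 positive of 5 with a median of 0.28, the checkpoint genes 6 of 6 with 0.28 and the spindle genes 10 of 10 with 0.31. These counts hold for the probe set that stood for each gene: the further probe set of Top2a had -0.26 where the first had 0.40. The licensing genes were 4 positive and 4 negative with a median of 0.02, and the fork genes 2 and 2 with 0.04. Over all 68 probe sets 51 were positive. The members are measured on the same arrays and are not independent of each other.

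Ube2c in mesenchymal cells had 7.54, 7.26 and 7.21 in vehicle mice and 8.01, 7.70 and 7.64 in phenobarbital mice. All phenobarbital arrays were higher, and the difference was 0.45 (SE 0.14, unadjusted p = 0.0138, adjusted p = 0.999). Birc5 had 7.30, 6.96 and 7.18 against 8.11, 7.46 and 7.36, without overlap, and a difference of 0.50 (SE 0.21). Ccna2 had 8.44, 7.98 and 8.34 against 9.18, 8.68 and 8.41, a difference of 0.50 (SE 0.21), and here phenobarbital array 3 lay below vehicle array 1. Mki67 had 8.79, 8.49 and 8.67 against 9.35, 9.04 and 8.63. Phenobarbital array 3 lay among the vehicle arrays, and the difference was 0.36 (SE 0.18) with an interval from -0.08 to 0.79. Without phenobarbital array 1 the differences of Ube2c, Birc5, Ccna2 and Mki67 were 0.33, 0.27, 0.29 and 0.19. Bub1b and Mad2l1 were the other members without overlap, at 0.16 and 0.19. On the negative side Mcm2 had 9.58, 8.99 and 8.78 against 8.88, 8.62 and 8.73, a difference of -0.37 (SE 0.20). Vehicle array 1 was the highest, and without it the difference was -0.14. Tyms followed at -0.09 (SE 0.11) and Mcm3 at -0.08. Further probe sets of Mcm2, Tyms and Mcm3 went up to 0.03, 0.09 and 0.01. For 36 members the 95% interval lay within a 2-fold change in either direction, and for Ccna2 and Prc1 it reached 1.01 and 1.08.

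**Figure D5:**
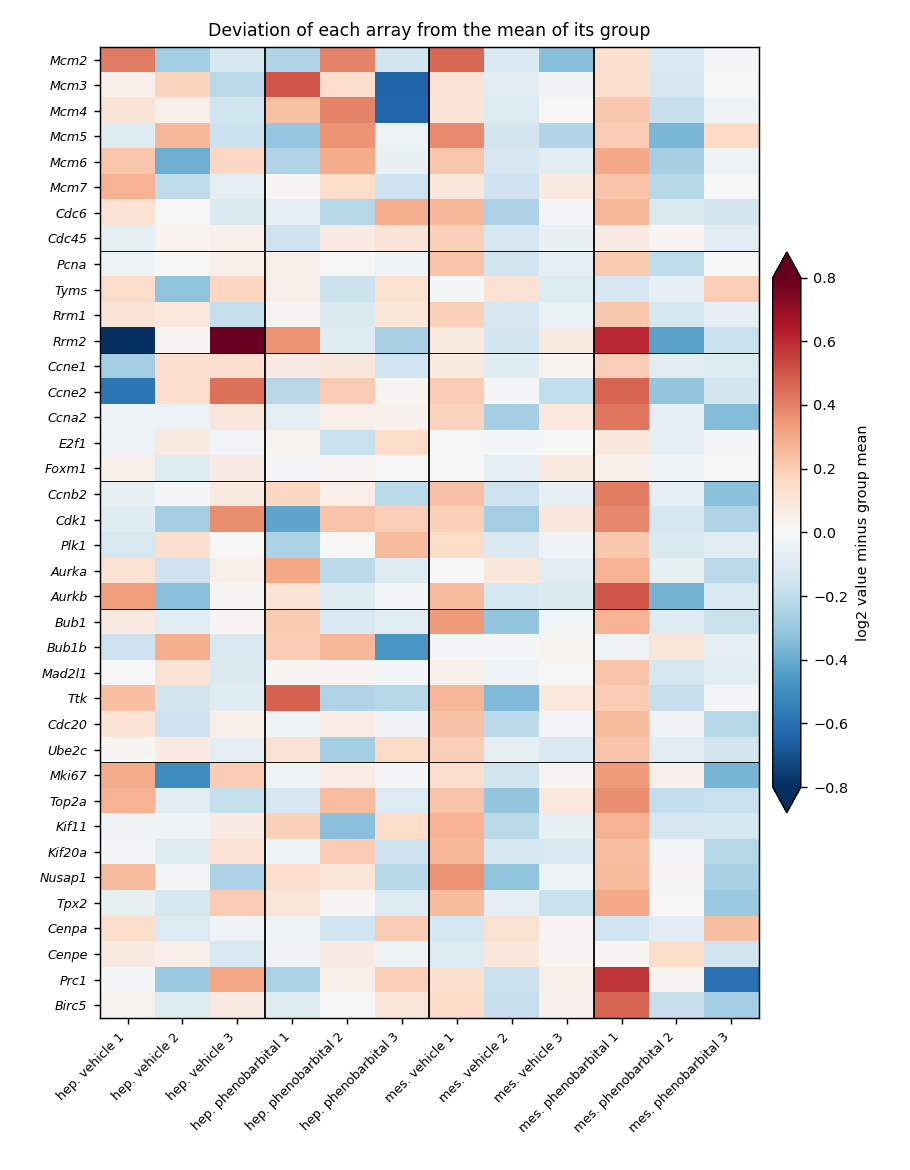
Log2 value of each array (x axis, 12 arrays in their 4 groups) minus the mean of its group, for each gene (y axis, grouped by role), on a colour scale from -0.8 to 0.8 with red above and blue below the group mean and values past the scale drawn at its end. The column of mesenchymal array 1 is red in most genes in both treatments, and no such column is seen in hepatocytes.

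In both mesenchymal groups 1 array carried the high values of nearly the whole set. Vehicle array 1 was the highest of its group in 32 of 38 members (84.2%), and in 38.4% of all genes. Phenobarbital array 1 was the highest of its group in 34 of 38 (89.5%), and in 31.7% of all genes. All 8 licensing genes were highest on array 1 in both groups. Vehicle array 2 was the lowest in 28 members (73.7%), and in 27.7% of all genes. In hepatocytes no array was the highest in more than 44.7% of the members. The arrays numbered 1 differ from the rest in other genes as well, though not alike: the hepatocyte markers were lowest on vehicle array 1 and highest on phenobarbital array 1, T and NK cell markers were highest on vehicle array 1, and the low Dbp was seen on vehicle array 1 alone among the mesenchymal arrays. The part of these differences in the values of the members was not tested.

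The lean of the mesenchymal differences moved with these arrays. Without phenobarbital array 1 the median of the members was 0.08 and 25 were positive, and without vehicle array 1 the median was 0.26 and 34 were positive. Without vehicle array 2, the lowest of its group in most members, the median was 0.15 with 28 positive. Without phenobarbital array 2, the array with high neutrophil markers, the median was 0.25 with 34 positive. Without both mesenchymal arrays numbered 1, a setting chosen after seeing the data, the median was 0.14 with 30 positive. No member was called in any of these fits.

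The difference between the effect in mesenchymal cells and that in hepatocytes was tested as an interaction over all 12 arrays. It was called for 0 of 38 members, with 2 at an unadjusted p under 0.05, and for 0% of all genes in either direction, with 735 genes at an unadjusted p under 0.05. The median of the members was 0.17, with 27 positive and 11 negative, and that of all genes -0.01. The smallest p was that of Cdc20, negative in hepatocytes and positive in mesenchymal cells, at 0.60 (SE 0.20, unadjusted p = 0.0121, adjusted p = 0.781) with a 95% interval from 0.16 to 1.04. Its further probe sets had 0.81 and -0.02. Bub1 had 0.56 (SE 0.24, unadjusted p = 0.0372, adjusted p = 0.808) and Ube2c 0.35 (SE 0.20). The further probe set of Bub1 had -0.08. On the negative side stood Ccne1 at -0.34, Mcm2 at -0.50 and Mcm3 at -0.32. Further probe sets of Mcm2 and Mcm3 went up to 0.07 and 0.31. Without the vehicle arrays numbered 1 in both populations Ccne1 had -0.18, and without the mesenchymal one alone Mcm2 had -0.27. For 8 members the 95% interval of this contrast reached past a 2-fold difference, and without mesenchymal phenobarbital array 1 the median was 0.04. An effect seen in one population and not in the other is therefore not shown to differ between them for any member.

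Other genes of the cell cycle place the members in their pathway. Of 43 further replication genes tested, such as origin proteins and polymerases, 28 were higher and 2 lower in mesenchymal cells of vehicle mice, with a median of 0.61. Of 57 further mitosis genes 33 were higher and 13 lower, with a median of 0.53. Of 19 G1 cyclins, E2F factors and pocket proteins 9 were higher and 4 lower, of 16 cell cycle inhibitors 8 and 2, and of 14 checkpoint and recombination genes 7 and 3. Of all genes, 32.8% were called higher and 45.5% lower in this comparison, with a median of -0.19. Hmgb2, a chromatin protein of dividing cells, was higher by 4.26, the condensin subunits Ncapg2 and Smc2 by 3.89 and 2.88, and Incenp, a partner of Aurkb and Birc5, by 2.96. Dck, a kinase that salvages nucleosides, was higher by 2.97, Timeless, which protects the fork, by 2.29, and Dnmt1, which copies DNA methylation, by 2.02. Ccnd2, cyclin D2, had 5.47, 5.63 and 5.72 in hepatocytes and 10.65, 10.67 and 10.91 in mesenchymal cells, a difference of 5.14. Cyclin D1 and the pocket proteins Rbl1 and Rb1 were higher by 2.33 (Ccnd1), 3.16 and 1.83. The inhibitors Cdkn1c, Cdkn2d and Cdkn1b were higher by 2.27, 1.56 and 1.51. Mcm10, which acts with Cdc45 at the start of replication, was lower in mesenchymal cells by more than any member. It had 10.62, 11.49 and 11.53 in hepatocytes and 7.10, 7.47 and 7.31 in mesenchymal cells, a difference of -3.92. Mcm10 has 2 probe sets, and these values are of the one with the higher mean. For Mcm10 and the other further genes, the remaining probe sets were not compared here. Wee1, the kinase that restrains Cdk1 and a gene of the clock, had 6.89, 8.87 and 8.87 in hepatocytes of vehicle mice, low on the array with low Dbp, and a difference of -1.14. Without the vehicle arrays numbered 1 its difference was -1.57.

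Under phenobarbital no gene of these lists was called in either population. In hepatocytes 18 of 43 further replication genes and 32 of 57 further mitosis genes were positive, against 51.9% of all genes. Anln, anillin of the cleavage furrow, had 4.53, 4.47 and 4.60 in vehicle and 5.47, 5.12 and 5.36 in phenobarbital mice, without overlap, and a difference of 0.78 (SE 0.12, adjusted p = 0.161). Ccnd1 had 8.36, 8.51 and 8.78 against 7.84, 7.98 and 8.05, all phenobarbital arrays lower, and a difference of -0.59 (SE 0.13, adjusted p = 0.397). Gadd45g, a growth arrest gene, had -0.99 (adjusted p = 0.201), and Myc, a factor that drives growth, -1.13 (adjusted p = 0.471). Without vehicle array 1, Myc had -0.78 and Gadd45g -0.86. In mesenchymal cells 27 of 43 further replication genes and 49 of 57 further mitosis genes were positive, the latter with a median of 0.15, against 48.4% of all genes. Phenobarbital array 1 was the highest of its group in 44 of these 57 mitosis genes (77.2%), and in 31.7% of all genes. Vehicle array 1 was the highest of its group in 32 of them (56.1%), and in 38.4% of all genes. The median of this list without these arrays was not tested. Racgap1, which acts with Anln in cytokinesis, had 6.66, 6.30 and 6.41 against 6.99, 6.72 and 6.90, without overlap, and a difference of 0.41 (SE 0.12, adjusted p = 0.999). Ccnd1 had 10.90, 10.78 and 10.96 against 11.25, 11.07 and 11.21, and a difference of 0.29 (SE 0.08, adjusted p = 0.999). Its interaction of 0.88 had an unadjusted p of 0.000108 and an adjusted p of 0.668.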

How the data were processed

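Total RNA of the 12 samples was labelled with an Affymetrix 3′ IVT kit, per the labels' protocols, and the deposited table holds log2 values of 22626 probe sets that the authors made with RMA, per the submitters' processing notes. The version of RMA, its software and any scan batches were not given in the sources used here. Since RMA is meant to bring arrays to a common distribution, a shift of most genes may not be seen, though the array medians differed between the populations. Platform symbols named 20380 probe sets with 1 symbol, 691 with several and 1555 with none, and for each of 12393 genes the single-symbol probe set whose mean over the 12 arrays was highest was tested, with no filter on low values. Differences were tested with limma 3.58.1 (R 4.3.3), by lmFit and eBayes with an intensity trend, two-sided, with Benjamini-Hochberg adjustment over all genes and a threshold of 0.05. Phenobarbital was compared with vehicle on the 6 arrays of a population, and populations and the interaction on all 12. The fits were tested on simulated data. The number of arrays limits the precision.

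The members, the 6 roles, the further gene lists and the tests were chosen with earlier results of these data known. Genes with single arrays printed were the 2 widest and the narrowest of each role in vehicle mice, a fixed set (Mki67, Top2a, Ccna2, Ccne1, Ccne2, Cdk1, Pcna, Mcm2 and E2f1), and, where no member was called, the 3 positive and 3 negative members of smallest p. Of each further list, up to 4 called genes with the widest difference or, if none, the 2 with the smallest p were eligible. Pcna under phenobarbital and Wee1 in single arrays were named after their values were seen, as was Mcm10 in comparison with the members. Deviations of hepatocyte and mesenchymal samples of the same number from their group means correlated at 0.197, 0.175 and 0.149 in vehicle mice, and between -0.0316 and 0.0631 in phenobarbital mice. Between mesenchymal arrays of vehicle and phenobarbital mice, which are different mice, the correlations ran from -0.311 to 0.270. The values therefore do not show whether samples of the same number are pairs. As an alternative a replicate block was fitted. Between the populations it paired arrays of the same number in both treatments, and within a population vehicle with phenobarbital arrays of the same number. No pair of arrays was identical, the smallest median absolute difference within a group being 0.107. Single values of the further genes without the vehicle arrays numbered 1 were added after seeing the data. Alternatives changed the filter, scaling, probe set rule, variance model, arrays fitted and samples.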

Additional observations from a re-analysis of the deposited data

How the results depend on the processing

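In hepatocytes, genes called under phenobarbital numbered 5 of 12393, 3 with the mean of a gene's probe sets, 9 with every probe set tested on its own, 3 without the intensity trend, 1 with all 12 arrays in 1 fit, and 1 to 7 with each array left out. No member was called in any of these fits. In vehicle mice the median difference of the members between the populations, 1.42, became 1.75 with low genes left out, 1.21 and 1.29 with arrays centred on the median and the 75th percentile, 0.97 with the mean of probe sets, 0.998 without probe sets of the suffixes x, s and a, 0.97 over single probe sets, and 1.30 to 1.47 with each array left out. With every probe set tested, 15526 were called in place of 9710 genes, and 46 probe sets of members were higher and 7 lower in place of 29 and 3. In phenobarbital mice these were 15915 in place of 9967, and 50 and 6 in place of 31 and 3, and the median of 1.43 became 1.14 with the mean of probe sets. Top2a reversed without the suffixed probe sets, to -0.84 (adjusted p = 7.00e-05) in vehicle and -1.15 in phenobarbital mice, because its other probe set then stood for it. For the interaction 0 or 1 genes were called with each array left out, 1 without hepatocyte phenobarbital array 1 or 3 or mesenchymal phenobarbital array 1.

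Of the single members, E2f1 was called higher in mesenchymal cells with the mean of probe sets (0.32 in vehicle and 0.29 in phenobarbital mice), Foxm1 lower under both centrings and in vehicle mice with the mean of probe sets, and Cdc20 lost its call with that mean in vehicle mice (0.34). Plk1 in phenobarbital mice lost its call under both centrings and in a fit of 6 arrays, and Tyms with the mean of probe sets (-0.06). Kif20a lost its call there with arrays centred on the median (0.33). The share of higher among called genes in vehicle mice, 41.9%, was 50.8% with low genes left out, and 32.7% and 35.9% under the centrings; in phenobarbital mice it was 40.9%, and then 50.8%, 32.3% and 34.4%. Uncalled differences changed sign in 38 of 541 alternative values of the members in hepatocytes under phenobarbital, 28 of 588 in mesenchymal cells and 43 of 781 for the interaction. The causes of these changes, other than that of Top2a, were not tested.

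With the replicate block the counts were 29 higher and 3 lower in vehicle mice and 30 and 3 in phenobarbital mice, where Plk1 (0.35, adjusted p = 0.0909) lost its call. The block changed no other call of a member. The table gives no signal over background, so how far dim genes stood above it is unknown.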
